A study of Mus musculus with 6 samples.

Results

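Keratins are the proteins of the epithelial intermediate filament. A filament is built from dimers of an acidic type I keratin with a basic type II keratin, so the members are described in pairs, and a keratin without a partner is known to be degraded. In the mammary gland, luminal cells are known for Krt8 and Krt18, with Krt7 and Krt19, and basal or myoepithelial cells for Krt5, Krt14 and Krt17. Krt80 is an epithelial type II keratin found near desmosomes. The 8 genes described here, 4 of type I (Krt14, Krt17, Krt18, Krt19) and 4 of type II (Krt5, Krt7, Krt8, Krt80), were found by symbol as 8 of the 24421 rows of the authors' RPKM table (reads assigned to a gene, scaled to its length and to the library's total).

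The table holds 6 libraries of polyadenylated RNA from 4T1, a mouse mammary adenocarcinoma cell line labelled epithelial and grown in culture. Of these, 3 libraries carry a short hairpin RNA against HSF1, the transcription factor of the heat shock response (labelled shHSF1), and 3 carry a control hairpin (shCTL). The sources used here give neither the hairpin sequences nor whether a line was 1 clone. Between 23750025 and 36903175 reads were assigned to genes per library. At the level of transcripts, fewer cells making a keratin and less keratin RNA per cell cannot be told apart.

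The target transcript stood at 23.2, 13.8 and 15.4 RPKM in libraries labelled shHSF1 replicates 1 to 3, against 18.4, 20.3 and 20.1 RPKM in shCTL. In the library labelled shHSF1 replicate 1 Hsf1 was thus above every shCTL library (log2 difference over all 6 libraries −0.20, SE 0.21, limma adjusted p = 0.810), and every direction given for shHSF1 rests on that label as given. Both replicate 1 libraries also stood apart from the other 4 on the first principal component, which carried 53.8% of the variance, so each keratin is also given for the replicate 1 pair and for replicates 2 and 3. Checked against the epithelial label, Epcam, Cdh1, Cldn4 and Grhl2 were present in every library, while Cldn3 and Cldn7 were at or below 0.203 RPKM in every library. Of the 8 epithelial markers 6 were tested, 0 of 6 passed over the 6 libraries, and their summed level was 93.6 to 225 RPKM in shHSF1 and 106 to 124 RPKM in shCTL. The summed 5 endothelial markers reached at most 0.143 RPKM in either group, with Kdr and Emcn at 0 reads. The summed 7 leukocyte markers lay at 13.3 to 23.3 RPKM in shHSF1 and 4.07 to 19.5 RPKM in shCTL, nearly all of it Cd68, while Ptprc, the pan-leukocyte marker, stayed at or below 0.0845 RPKM. The summed 7 fibroblast markers lay at 15.7 to 22.8 RPKM in shHSF1 and 10.0 to 37.6 RPKM in shCTL, nearly all of it Pdgfra, with Col3a1 and Lum at 0 reads. Without both replicate 1 libraries 7.04% of all genes passed as higher and 4.04% as lower in shHSF1. Of the markers, Epcam, Esrp1 (1.25) and Cd68 (1.57) rose there and Cdh1 (−0.98) fell on the log2 scale. The part of these markers in the keratin values was not tested.

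The type II genes and Krt18 share 1 locus. In mm10, the file's build, Krt80 (chromosome 15, 101349571 to 101370125, minus strand), Krt7 (101412403 to 101427806, plus strand), Krt5 (101707070 to 101712891, minus strand), Krt8 (101996711 to 102004342, minus strand) and Krt18 (102028216 to 102032026, plus strand) follow each other on chromosome 15. Krt8 and Krt18 are neighbours 23873 bases apart that are transcribed away from each other. The stretch from Krt80 to Krt18 holds 25 keratin genes, of which 4 passed 1 RPKM in any library and 18 had 0 reads in all 6. Those 4 were Krt7, Krt8, Krt18 and Krt80. The remaining type I members lie on chromosome 11, Krt19 at 100140811 to 100145919, Krt14 at 100203162 to 100207510 and Krt17 at 100256217 to 100260989, all on the minus strand.

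The promoters of Krt8 and Krt18 are shown because their transcripts had lower values together in shHSF1, and that of Krt7 because it is the other abundant type II keratin and had overlapping values. Each run is the 250 bases before the RefSeq start of the gene (GRCm38.p6), read 5′ to 3′ on the gene's strand, at chr15:102004343-102004592 for Krt8, chr15:102027966-102028215 for Krt18 and chr15:101412153-101412402 for Krt7. Capitals mark matches, on either strand, to the motifs searched: GAANNTTC and TTCNNGAA (parts of a heat shock element), TGANTCA (AP-1), GGGCGG (GC box), TTCNNNGAA (a STAT site) and TATAAA.
Krt8: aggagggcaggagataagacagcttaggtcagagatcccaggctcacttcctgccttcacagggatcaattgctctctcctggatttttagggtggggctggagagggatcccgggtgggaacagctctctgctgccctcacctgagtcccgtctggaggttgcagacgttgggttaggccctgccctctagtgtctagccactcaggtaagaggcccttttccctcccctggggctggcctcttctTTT
Krt18: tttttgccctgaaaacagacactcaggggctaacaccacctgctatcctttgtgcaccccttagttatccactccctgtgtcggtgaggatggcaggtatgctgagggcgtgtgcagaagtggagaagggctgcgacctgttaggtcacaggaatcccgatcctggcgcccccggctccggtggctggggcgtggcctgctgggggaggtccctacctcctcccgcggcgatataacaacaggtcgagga
Krt7: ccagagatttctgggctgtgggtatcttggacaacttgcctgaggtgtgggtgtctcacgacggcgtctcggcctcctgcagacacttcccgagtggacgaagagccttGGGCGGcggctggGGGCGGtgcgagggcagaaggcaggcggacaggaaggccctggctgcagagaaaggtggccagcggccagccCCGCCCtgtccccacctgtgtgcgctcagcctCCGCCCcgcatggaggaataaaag

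Promoters were found for 5 of the 8 members (Krt5, Krt7, Krt8, Krt14 and Krt18), in windows that run from 250 bases before to 50 bases after the start. For Krt14 the start used lies 1480 bases inside the gene as the authors' positions place it. Its window is thus not at that 5′ end, though it is counted among the 5. Krt7 held GGGCGG at 4 places, which begin 141, 128, 56 and 24 bases before its start, and 35.7% of all 32851 promoters of that length hold this motif. In Krt8 a TATAAA match on each strand runs across the start, so only its first letters fall within the printed bases; 13.6% of promoters hold one. The Krt18 window held none of the 6 motifs. GAANNTTC was in 0 of 5 member promoters and 7.86% of all, TTCNNGAA in 0 and 8.52%, TGANTCA in 0 and 7.81%, and TTCNNNGAA in 0 and 8.30%. A missing match says only that these letters are not in this window. The bases before the start were 58.0% G or C for Krt8, 60.4% for Krt18 and 66.0% for Krt7, against a median of 52.4% over all promoters.

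**Figure D1:**
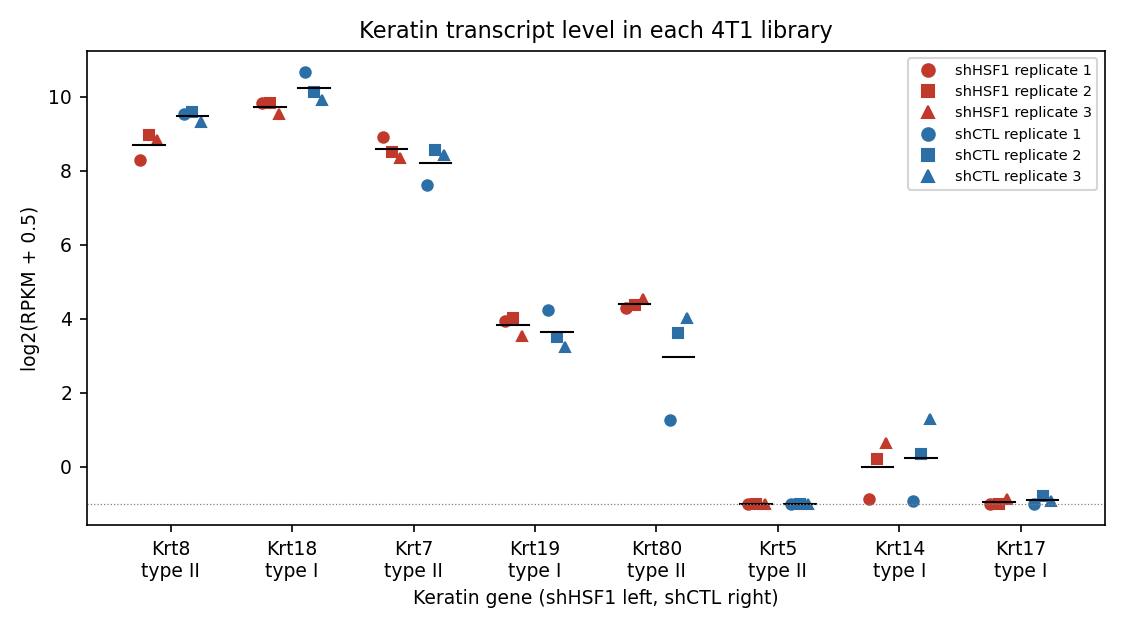
Level of each keratin as log2(RPKM + 0.5) in every library, with libraries labelled shHSF1 on the left and shCTL on the right, 1 symbol per replicate number and a bar at the group mean (n = 3 each). Krt8 and Krt18 lie lower in all 3 shHSF1 libraries than in any shCTL library, Krt80 lies higher, and the dotted line marks 0 RPKM, where Krt5 lies in all 6.

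Transcripts of the luminal pair were abundant and had lower values in shHSF1. Krt8, the main type II keratin of simple epithelia, stood at 314, 502 and 451 RPKM in libraries labelled shHSF1 replicates 1 to 3, against 738, 760 and 632 RPKM in shCTL. The groups did not overlap, and the lowest value was in the library labelled shHSF1 replicate 1. The means were 423 ± 97.1 RPKM in shHSF1 and 710 ± 68.9 RPKM in shCTL (SD, n = 3 each), 40.5% lower, with a log2 difference of −0.77 (SE 0.21, limma adjusted p = 0.247). Krt8 therefore did not pass the test over all 11386 genes tested, although its p before adjustment was 0.00900.

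The type I partner also had lower values, by a smaller amount. Krt18 stood at 910, 904 and 738 RPKM in libraries labelled shHSF1, against 1611, 1111 and 963 RPKM in shCTL. The groups did not overlap, though shHSF1 replicate 1 and shCTL replicate 3 were close, and shCTL replicate 1 was well above every other library. The means were 851 ± 97.9 RPKM in shHSF1 and 1228 ± 340 RPKM in shCTL (SD, n = 3 each), with a log2 difference of −0.50 (SE 0.23, limma adjusted p = 0.482), and of −0.29 without shCTL replicate 1. Krt18 was the most abundant keratin in every library, ranking between 16 and 64 among all genes by RPKM. Krt8 ranked between 62 and 143, and their values rest on 29601 to 55558 reads for Krt18 and 13895 to 33435 reads for Krt8.

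Both genes were lower in each same-numbered pair. The ratio of shHSF1 to shCTL was 0.426, 0.660 and 0.715 for Krt8 in pairs 1 to 3, and 0.565, 0.814 and 0.766 for Krt18. The replicate 1 pair thus had the largest difference for both. Krt8 passed the test once both replicate 1 libraries were left out (log2 difference −0.54, SE 0.12, limma adjusted p = 0.0466). In that fit of 2 against 2 libraries 11.1% of all genes passed, 4.04% lower and 7.04% higher in shHSF1. Krt18 did not pass there (−0.34, SE 0.14, limma adjusted p = 0.148). A term for replicate 1 against the rest gave limma adjusted p of 0.0519 for Krt8 and 0.0896 for Krt18 (5.64% of all genes passed), and the replicate block gave 0.112 and 0.131 (0.176% passed).

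Krt7, a type II keratin of glandular epithelium, was the third abundant member. It stood at 481, 360 and 324 RPKM in libraries labelled shHSF1, against 196, 373 and 345 RPKM in shCTL. The groups overlapped: replicates 2 and 3 were alike in both, and the highest and the lowest value were the replicate 1 libraries. The means were 388 ± 82.6 RPKM in shHSF1 and 305 ± 95.3 RPKM in shCTL (log2 difference 0.38, SE 0.29, limma adjusted p = 0.688). The pair ratios were 2.46, 0.963 and 0.939, and its sign depended on replicate 1, with −0.072 (SE 0.099, limma adjusted p = 0.646) once both of those libraries were left out.

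Krt19, the smallest type I keratin, was a minor transcript. It stood at 14.9, 15.6 and 11.0 RPKM in libraries labelled shHSF1, against 18.3, 10.8 and 8.84 RPKM in shCTL. The groups overlapped, with shCTL replicate 1 the highest of all 6 libraries and shCTL replicates 2 and 3 the lowest. The shHSF1 libraries differed by 0.18 on the log2 scale (SE 0.29, limma adjusted p = 0.889), and the pair ratios were 0.814, 1.45 and 1.24. Without both replicate 1 libraries it was 0.41 (SE 0.19, limma adjusted p = 0.193).

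Krt80 was the member with higher values in shHSF1. It stood at 18.9, 20.2 and 22.7 RPKM in libraries labelled shHSF1, against 1.90, 11.7 and 15.8 RPKM in shCTL. The groups did not overlap, the shHSF1 libraries lay close together, and shCTL replicate 1, with 83 reads, was far below the others. The means were 20.6 ± 1.91 RPKM in shHSF1 and 9.77 ± 7.12 RPKM in shCTL (SD, n = 3 each), with a log2 difference of 1.43 (SE 0.68, limma adjusted p = 0.497). The size rested on that 1 library: without shCTL replicate 1 it shrank to 0.58 (SE 0.17, limma adjusted p = 0.249), and the pair ratios were 9.96, 1.73 and 1.44. Without both replicate 1 libraries it was 0.64 (SE 0.16, limma adjusted p = 0.0552).

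The basal keratins were at or near 0 in both groups. Krt5, the type II keratin of basal cells, had 0 reads in all 6 libraries, and 3 reads would have stood for 0.0371 to 0.0577 RPKM. Its type I partner Krt14 stood at 0.0492, 0.653 and 1.07 RPKM in libraries labelled shHSF1, against 0.0245, 0.761 and 1.95 RPKM in shCTL. These values rest on 2, 40 and 51 reads in shHSF1 and 1, 30 and 88 reads in shCTL. Replicate 1 was lowest in both groups and the groups overlapped (log2 difference −0.23, SE 0.64, limma adjusted p = 0.939). Krt17, a type I keratin of basal and stressed epithelia, had 0, 0 and 2 reads in shHSF1 and 0, 3 and 1 reads in shCTL, so no difference could be detected at this depth. Krt5 and Krt17 fell under the filter on low values and were not tested. Acta2, which marks myoepithelial cells, stood at 0.0318 to 0.221 RPKM in shHSF1 and 0.0158 to 0.131 RPKM in shCTL. It is 1 of 14 basal markers other than keratins, of which 6 passed the filter on low values. Among those 6, Nrg1 stood at 2.61 to 14.4 RPKM and Vim at 594 to 1818 RPKM over the 6 libraries.

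Of the 8 members 6 were thus tested, and 0 of 6 passed an adjusted p of 0.05 in limma over all 6 libraries. In that fit 0.0263% of all 11386 genes passed, and the same count of 0 members was obtained with voom on whole reads, where 0.0966% of genes passed. Krt8 was the only tested member with an unadjusted p under 0.05, which 11.4% of all genes had. The groups did not overlap for 3 of 6, lower for Krt8 and Krt18 and higher for Krt80, against 20.0% of all genes tested (7.16% lower, 12.9% higher). For each of these 3 the two-sided exact permutation p was 0.1, which is the smallest that 3 against 3 allows. The median log2 difference of the 6 was −0.029, beside 0.052 over all genes.

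**Figure D2:**
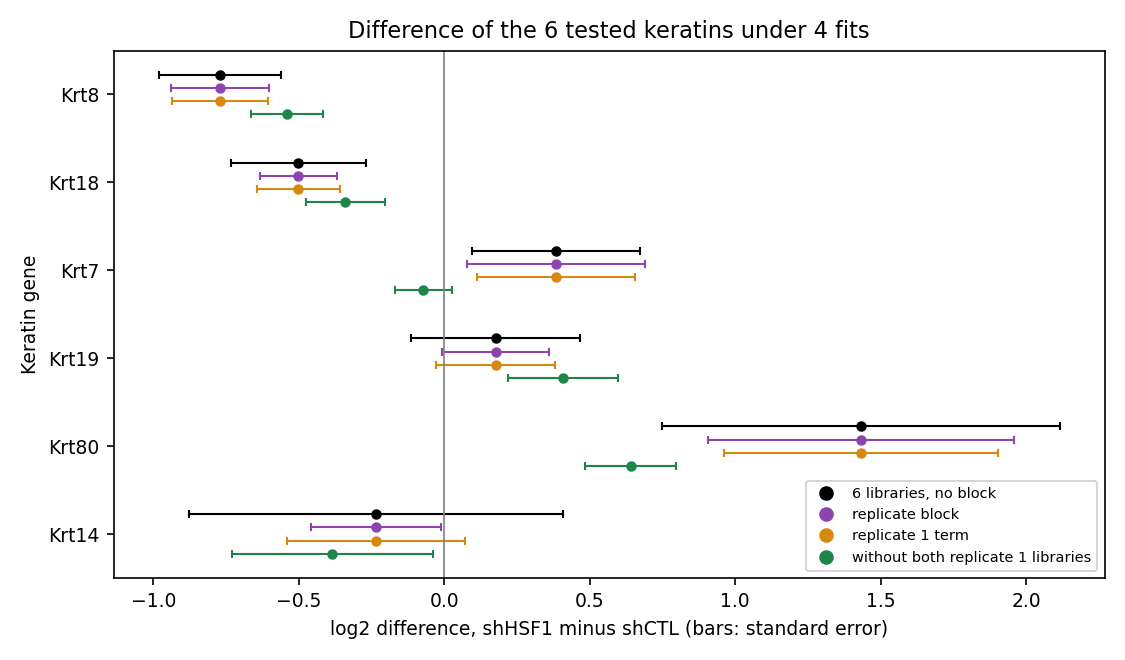
Log2 difference (shHSF1 minus shCTL, with its standard error) of the 6 tested keratins in 4 limma fits: all 6 libraries, with the replicate block, with a term for replicate 1 against the rest, and without both replicate 1 libraries. Krt8 and Krt18 lie below 0 and Krt80 above 0 in all 4 fits, while Krt7 changes sign when the replicate 1 libraries are left out.

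The sum of the 8 keratins, a description with no test, was lower in shHSF1. It was 1740, 1802 and 1548 RPKM in libraries labelled shHSF1, against 2566, 2267 and 1966 RPKM in shCTL, 25.1% lower by the means. The groups did not overlap, and the 8 genes took 0.242% to 0.280% of the reads in shHSF1 and 0.308% to 0.393% in shCTL. Krt8 and Krt18 made up 70.4% to 78.0% of the sum in shHSF1 and 81.1% to 91.6% in shCTL. Of the other members Krt7, Krt19 and Krt80 had higher means in shHSF1.

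The balance of the filament types was also read within each library, per length in RPKM. The ratio of Krt8 to Krt18 was 0.345, 0.555 and 0.612 in the libraries labelled shHSF1, against 0.458, 0.685 and 0.655 in shCTL. It was lowest in replicate 1 of both groups, and the groups overlapped. With Krt7 and Krt80 counted, type II over type I came to 0.880, 0.958 and 1.06 in shHSF1, against 0.574, 1.02 and 1.02 in shCTL, so shCTL replicate 1, with type I in excess, stood apart from the other 5 libraries. Within type II, the ratio of Krt7 to Krt8 (chosen after the values were seen) was 1.53, 0.716 and 0.717 in shHSF1, against 0.265, 0.491 and 0.546 in shCTL. These groups did not overlap, and Krt7 made up 40.6% to 59.1% of type II RPKM in shHSF1 and 20.9% to 34.8% in shCTL. Type I was almost all Krt18, at 98.2% to 98.4% in shHSF1 and 98.9% to 99.0% in shCTL. The summed luminal keratins (Krt7, Krt8, Krt18, Krt19) exceeded the summed basal ones (Krt5, Krt14, Krt17) by 1363-fold or more in shHSF1 and 986-fold or more in shCTL, the lowest ratio of each group being in replicate 3.

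**Figure D3:**
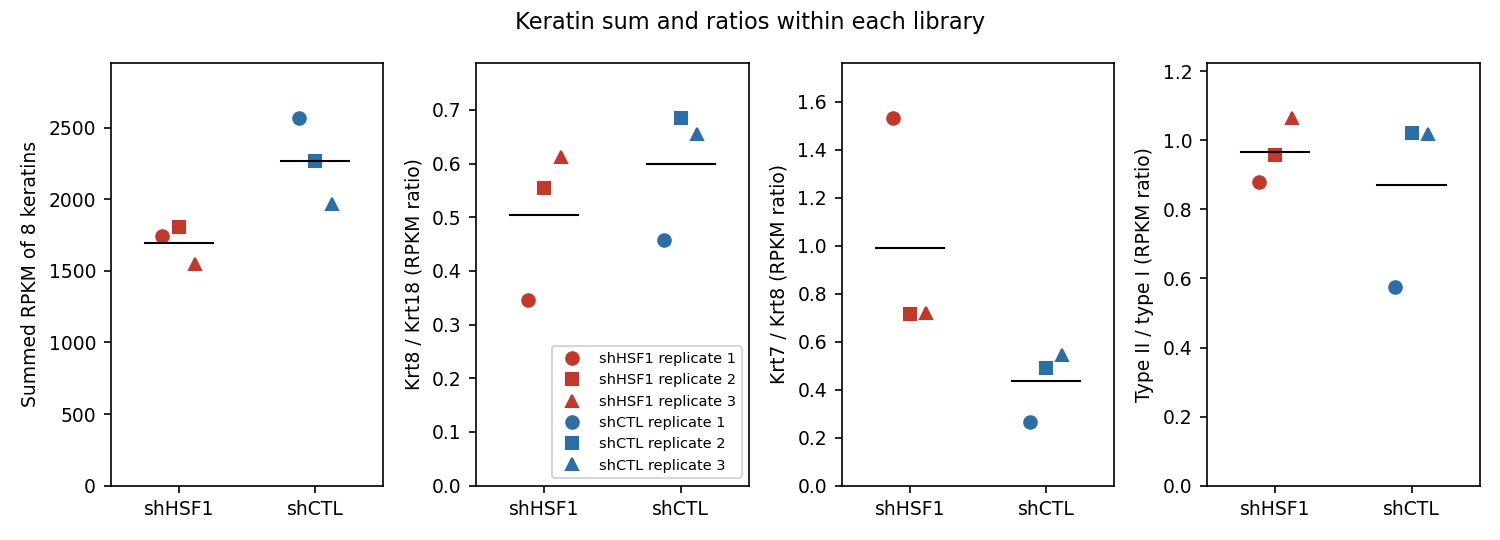
Summed RPKM of the 8 keratins and 3 RPKM ratios in each library (libraries labelled shHSF1 left, shCTL right; bars are group means, n = 3 each; axes start at 0). The sum lies lower and Krt7 over Krt8 higher in every shHSF1 library than in any shCTL library, while Krt8 over Krt18 and type II over type I overlap.

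Reads shared with gene copies could touch Krt8. Of the distinct 50-base stretches in its GENCODE M21 transcripts, 29.7% also occur in transcripts of other genes, 26.9% in the pseudogene Krt8-ps. For Krt18 the share was 0.720%, for Krt7 0.916%, for Krt80 2.74%, for Krt19 0%, for Krt5 12.2%, mostly with Krt6a, for Krt14 13.9%, mostly with Krt16, and for Krt17 3.99%. The sources used here do not say how reads that match several genes were treated, so the level of Krt8 is less certain than that of Krt18. Krt16, a stress keratin of skin, stayed at or below 0.277 RPKM in every library, and Krt6a had 0 reads.

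The other keratins were almost silent. Of 44 other keratin genes in the table, 30 had 0 reads in all 6 libraries and 41 stayed below 0.5 RPKM in each. Krt10, the type I keratin of differentiating epidermis, was the 1 that was tested. It stood at 0.957, 0.777 and 0.667 RPKM in libraries labelled shHSF1, against 1.44, 1.39 and 0.968 RPKM in shCTL (log2 difference −0.44, SE 0.22, limma adjusted p = 0.516). Krt13 and Krt23 passed 1 RPKM in shCTL replicate 1 only, at 2.01 and 1.42 RPKM (chosen after their values were seen). In the library labelled shHSF1 replicate 1 they stood at 0.653 and 0.929 RPKM, and in the other 4 libraries at or below 0.256 and 0.158 RPKM.

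Other intermediate filament genes were led by vimentin, the filament of mesenchymal cells, which 4T1 carries beside its keratins. Vim stood at 594, 1138 and 1167 RPKM in libraries labelled shHSF1, against 1805, 1818 and 1387 RPKM in shCTL, without overlap. The library labelled shHSF1 replicate 1 was the lowest, as it was for Krt8. Vim differed by −0.84 on the log2 scale (SE 0.30, limma adjusted p = 0.362), by −0.52 without the library labelled shHSF1 replicate 1, and by −0.46 without both replicate 1 libraries (SE 0.14, limma adjusted p = 0.0915). Of 15 such genes 6 were tested, 0 of 6 passed and 3 of 6 lay above 0, with a median of −0.073. Lmnb2, a lamin of the nuclear envelope, averaged 10.8 ± 3.75 RPKM in shHSF1 and 7.36 ± 4.01 RPKM in shCTL (SD, n = 3 each; log2 difference 0.63, SE 0.50, limma adjusted p = 0.709). The size of that difference rested on single libraries, at 0.11 without shCTL replicate 1 and 0.97 without shCTL replicate 3.

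Desmosomes and plakins tie keratin filaments to the cell surface. Of 22 such genes 18 were tested, 0 of 18 passed over the 6 libraries and 6 of 18 lay above 0, with a median of −0.12. Dsc2 and Dsg2, the desmosomal cadherins named for the smallest p in this list, differed in opposite directions. Dsc2 stood at 0.0462, 0.110 and 0.0869 RPKM in libraries labelled shHSF1, against 1.57, 1.13 and 1.25 RPKM in shCTL (log2 difference −1.64, SE 0.21, limma adjusted p = 0.1004). These values rest on 5, 18 and 11 reads in shHSF1 and 171, 118 and 150 reads in shCTL. Dsc2 reached 0.5 RPKM only in shCTL, so it passed the filter only through the group where it was high. Its calls are therefore description only. Dsg2 stood at 3.68, 4.22 and 4.05 RPKM in shHSF1, against 1.49, 1.65 and 1.52 RPKM in shCTL (log2 difference 1.13, SE 0.16, limma adjusted p = 0.105). Neither overlapped between the groups. Of the 18 tested, 3 lay higher and 2 lower without overlap, against 12.9% and 7.16% of all genes tested. Over the 6 libraries voom on whole reads called Dsc2 lower (adjusted p = 0.0397) and the cornified envelope protein Evpl higher (adjusted p = 0.0303). In that fit 0.0966% of all genes passed. Without both replicate 1 libraries 7 of 18 passed, where 7.04% of all genes rose and 4.04% fell. Dsg2, the plakophilin Pkp2 (0.53) and Evpl (1.34) rose, and Dsc2, Pkp1 (−0.88), the plakin Ppl (−0.49) and the hemidesmosomal linker Dst (−0.68) fell on the log2 scale.

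Of 24 regulators of keratin genes 15 were tested, 0 of 15 passed and 7 of 15 lay above 0, with a median of −0.091. Elf3, an epithelial ETS factor, stood at 20.4, 16.0 and 13.7 RPKM in libraries labelled shHSF1, against 4.26, 5.14 and 8.97 RPKM in shCTL (log2 difference 1.42, SE 0.29, limma adjusted p = 0.175). Foxa1, a pioneer factor of luminal cells, averaged 0.871 ± 0.210 RPKM in shHSF1 and 0.312 ± 0.0394 RPKM in shCTL (SD, n = 3 each; log2 difference 0.75, SE 0.22, limma adjusted p = 0.276). Foxa1 reached 0.5 RPKM only in shHSF1, so it passed the filter only through the group where it was high. Its difference is therefore description only. Without both replicate 1 libraries Elf3 rose (1.07, SE 0.24, limma adjusted p = 0.0477) and Tfap2a, an AP-2 factor, fell (−0.51, SE 0.12, limma adjusted p = 0.0463). They were the only 1 of 15 to rise and 1 of 15 to fall there, where 7.04% of all genes rose and 4.04% fell. Trp63, the p63 factor that drives basal keratins, stayed at or below 0.796 RPKM, its level in the library labelled shHSF1 replicate 1.

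Among 10 proteins known to bind or fold keratins 9 were tested, 0 of 9 passed and the median log2 difference was 0.077. Sfn, the epithelial 14-3-3 sigma that binds keratins, averaged 3.34 ± 1.72 RPKM in shHSF1 and 8.34 ± 5.60 RPKM in shCTL, with overlap (log2 difference −1.04, SE 0.66, limma adjusted p = 0.618), and ran from −1.72 without shCTL replicate 1 to −0.57 without shCTL replicate 3. Sfn fell without both replicate 1 libraries (−1.29, SE 0.20, limma adjusted p = 0.0211). It was the 1 of 9 to pass there, where 7.04% of all genes rose and 4.04% fell. Ywhae, another 14-3-3 protein, averaged 526 ± 96.4 RPKM in shHSF1 and 430 ± 75.5 RPKM in shCTL (log2 difference 0.29, SE 0.21, limma adjusted p = 0.679), with 0.13 without shCTL replicate 1. Dnajb6, a co-chaperone that binds Krt18, differed by −0.033 on the log2 scale.

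Mammary lineage markers other than keratins had too few tested members for more than a description. Of 18 luminal markers 6 were tested, 0 of 6 passed, 5 of 6 lay above 0 and the median was 0.46. Without overlap between the groups, 4 of 6 lay higher and 0 lower in shHSF1, against 12.9% and 7.16% of all genes tested. Foxa1, among those above 0, passed the filter only through shHSF1. Another 6 (Pgr, Kit, Aldh1a3, Lalba, Wap and Csn2) had 0 reads in all 6 libraries. Epcam, an epithelial adhesion molecule, stood at 35.9, 33.3 and 28.3 RPKM in libraries labelled shHSF1, against 14.7, 13.8 and 12.7 RPKM in shCTL (log2 difference 1.21, SE 0.14, limma adjusted p = 0.0930). Epcam passed with the replicate block (SE 0.091, limma adjusted p = 0.0494), where 0.176% of all genes passed. It also rose without both replicate 1 libraries (1.18, SE 0.11, limma adjusted p = 0.00854), where 7.04% of all genes rose and 4.04% fell. Epcam was the 1 of 6 luminal markers to pass there. Its values thus lay on the opposite side from those of Krt8 and Krt18. Of 14 basal markers 6 were tested, 0 of 6 passed, 4 of 6 lay above 0 and the median was 0.25. Of these 6 basal markers, 2 lay higher and 1, Vim (−0.84), lower in shHSF1 without overlap, against 12.9% and 7.16% of all genes tested. The 14 summed basal markers, Vim among them, stood at 1127 to 1876 RPKM in shHSF1 and 1952 to 2359 RPKM in shCTL. Nrg1, an ERBB ligand of basal cells, averaged 12.4 ± 1.84 RPKM in shHSF1 and 5.70 ± 3.05 RPKM in shCTL (log2 difference 1.18, SE 0.39, limma adjusted p = 0.337), with 0.75 without shCTL replicate 1. Of the basal markers 1 of 6 passed without both replicate 1 libraries: Sparc, a secreted matrix protein, rose (0.95, SE 0.11, limma adjusted p = 0.0134). The shares of all genes in that fit are those given for Epcam.

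**Figure D4:**
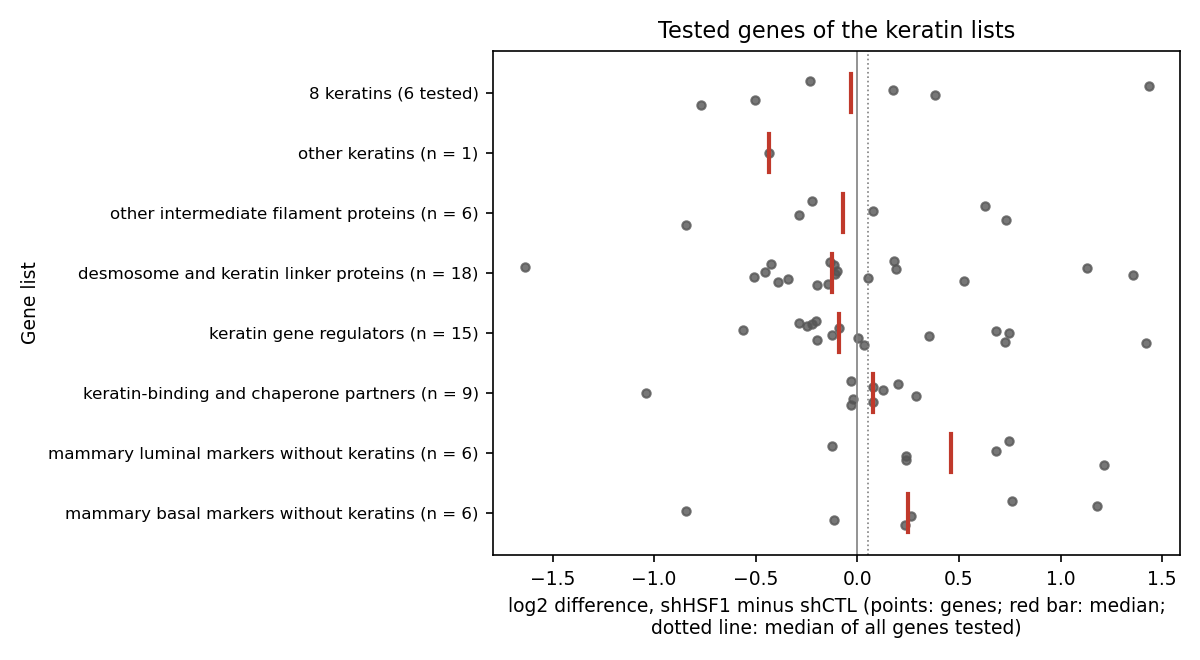
Log2 difference (shHSF1 minus shCTL, all 6 libraries) of each tested gene in the keratin lists, with the median of each list in red and the median of all genes tested as a dotted line. The 6 tested keratins spread from −0.77 for Krt8 to 1.43 for Krt80 around a median of −0.029.

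The members did not share 1 pattern over the libraries. As a description over 6 libraries that share 2 groups and replicate numbers, Pearson's r of log2 levels was 0.65 between Krt8 and Krt18, 0.85 between Krt7 and Krt80 and −0.96 between Krt18 and Krt80. The genes most like Krt8 were Adam3 (r = 0.998) and Leprot (0.994), and those most like Krt18 were Tnks2 (0.998) and Wdr78 (0.998). For Krt7 they were Ltn1 (0.999) and Prkg2 (0.986), for Krt19 Cd300lb (0.995) and Rnf5 (0.991), and for Krt80 Dgcr2 (0.995) and Ehd4 (0.994). So few libraries give many high values: between 38 genes for Krt7 and 182 genes for Krt80 reached r = 0.95.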

How the data were processed

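The authors deposited RPKM values per gene for 6 libraries, with gene lengths and positions. Per the submitters' processing notes, STAR and featureCounts were used with mm10; their versions, the annotation and the strand setting were not given in the sources used here. RNA libraries were made with a KAPA mRNA kit, per the labels' protocols. RPKM multiplied by gene length came out as whole multiples of 1 read for 100% of values (tolerance 0.001), which gave 23750025 to 36903175 reads per library. Floors of 3 reads cover counting error only. Columns of unmatched samples numbered 0, and 27 symbols turned into dates, none a keratin, were kept under row names.

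Groups came from the sample titles. Values were taken as log2(RPKM + 0.5), which understates fold changes of low genes. The test was limma 3.58.1 in R 4.3.3, on the 11386 genes that reached 0.5 RPKM in 3 libraries or more (variance trend, shHSF1 minus shCTL, no block, Benjamini-Hochberg over all genes, threshold 0.05). Whether replicates were separate cultures is not stated, so p-values measure the spread between libraries, which may be technical. Alternatives were other pseudocounts, filters and scalings, voom on whole reads, a replicate block, a term for replicate 1 against the rest and libraries left out. The code was tested on simulated data. Motifs and shared 50-base stretches were searched in Python 3.11.15. Sequences are RefSeq's (GRCm38.p6), matched by symbol.

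Deviations of same-numbered libraries from their group means correlated across genes at 0.58, 0.18 and 0.68, each over 0.1. Same-numbered libraries are therefore also compared by pair ratios and in the replicate block, while the main test had no block. Deviations within a group of 3 sum to 0, so these correlations cannot establish pairing. What same-numbered libraries share is not stated in the labels. For replicate 2 the match was not the closest: shCTL replicate 2 correlated more with shHSF1 replicate 3 (0.51), and shHSF1 replicate 2 more with shCTL replicate 3 (0.24).

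Members and lists were chosen with earlier results of these data known. Named were all members, Hsf1, the 2 genes of smallest p in each list (up to 3 where any passed), and the 2 genes most correlated with each member of at least 1 RPKM; others were chosen after their values were seen.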

Additional observations from a re-analysis of the deposited data

How the results depend on the processing

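Over 18 alternatives, Krt8 and Krt18 stayed lower and Krt80 higher in shHSF1 in each, with log2 differences of −0.91 to −0.54, −0.66 to −0.29 and 0.58 to 1.96. The adjusted p ranged from 0.0466 to 0.701 for Krt8, 0.0896 to 0.834 for Krt18 and 0.0552 to 0.807 for Krt80. The number of keratins past the test was 0 in 17 alternatives and 1 (Krt8) without both replicate 1 libraries, where Krt7 reversed to −0.072 and Hsf1 passed (−0.46, limma adjusted p = 0.0433). With single libraries left out, Krt14 ran from −0.82 to 0.30, Krt19 from −0.037 to 0.47 and Hsf1 from −0.42 to −0.049. Krt14 reversed without the library labelled shHSF1 replicate 1 (0.20) and without shCTL replicate 3 (0.30), and Krt19 without shCTL replicate 3 (−0.037). Krt14 could not be fitted with a filter of 1 RPKM. Without both replicate 1 libraries Ltn1 also reversed (−0.040). The cause was not tested.

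Over all genes 3 passed. The count was 18 with no filter on low values, 22 with no variance trend, 20 with the replicate block, 11 with voom, 106 with voom and the replicate block, 642 with a term for replicate 1 against the rest, 1262 without both replicate 1 libraries, and 0 to 8 when 1 library was left out. Leaving out either replicate 2 library gave 0 in limma, with 778 genes (shHSF1) and 771 genes (shCTL) at an unadjusted p below 0.05. The replicate block changed no call for a keratin and, in limma, of the other named genes that of Epcam alone (limma adjusted p = 0.0494). In voom the block also changed the call of Dsg2. There the adjusted p went from 0.0662 to 0.0305 for Epcam and from 0.0662 to 0.0390 for Dsg2. A term for replicate 1 gave Epcam a limma adjusted p of 0.0128. As log2 differences with no test, the summed keratins ran from −0.51 to −0.32, Krt8 over Krt18 from −0.45 to −0.018, type II over type I from −0.080 to 0.33 and luminal over basal from −1.76 to 1.64 with single libraries left out. Krt7 over Krt8 ran from 0.79 to 1.35, and was 0.47 without both replicate 1 libraries. Depth limits Krt14 (1 to 88 reads) and Krt17 (0 to 3 reads).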
